A study of Mus musculus with 6 samples.

Results

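The Nrip1 locus of mouse liver was examined for binding of thyroid hormone receptor β1 (TRβ1) with and without injected triiodothyronine (T3), the active thyroid hormone. The locus was taken as chr16:76000000-76700000 on mm9, with the Nrip1 gene body at about 76.288 to 76.373 Mb, and its members are the called peaks whose midpoint falls in that window. There were 22 such peaks of 51992 in the list from hormone-deprived livers with TRβ1, 52 of 46092 in the list from T3-injected livers with TRβ1, and 0 of 107 in the list from livers without TRβ1. The region was selected on these lists themselves, by its many peaks found with T3 alone, so the numbers of peaks by hormone state below are a description and carry no test.

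The mice were 9 to 10 weeks old, heterozygous for expression of BirA (a biotin ligase that puts biotin on the receptor's tag), and all ate a diet with propylthiouracil (PTU), which blocks the making of thyroid hormone, for 3 weeks. A tail-vein adenovirus then delivered GFP alone or GFP with biotinylated TRβ1, and saline or T3 was injected into the peritoneum for 4 days. The 3 libraries of captured chromatin are GFP PTU (GFP alone, saline), TRb PTU (GFP and TRβ1, saline) and TRb T3 (GFP and TRβ1, T3), 1 library each, from a number of animals that the labels leave unstated. Streptavidin captured the virus-delivered receptor, so the mouse's own TRβ1 was not measured, and peak lists hold no expression values by which the liver label could be checked.

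Nrip1 encodes RIP140, a corepressor that binds nuclear receptors carrying their ligand and recruits repressive partners such as CtBP and histone deacetylases. In fat, muscle and liver it is known for its part in the control of lipid and glucose metabolism. TRβ1 sits on DNA, mostly as a heterodimer with the retinoid X receptor (RXR), whether or not hormone is present. Without T3 it recruits the corepressors NCoR and SMRT, and with T3 it exchanges them for coactivators.

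Nrip1 is transcribed toward lower coordinates, per RefSeq on GRCm38, so higher positions are upstream of it. In the same table Samsn1 and Usp25 are its nearest protein-coding neighbours, and 9 long non-coding RNA genes lie between them. RefSeq lists 2 promoters for Nrip1, whose starts are 778 bp apart. They are shown because both TRβ1 lists have a peak near the upstream limit of the gene, and the 250 bases before each start are printed 5′ to 3′ on the minus strand (build GRCm38.p6) with every CpG in capitals, the start farther upstream first. Their place on mm9 was not determined.
Nrip1 start 1: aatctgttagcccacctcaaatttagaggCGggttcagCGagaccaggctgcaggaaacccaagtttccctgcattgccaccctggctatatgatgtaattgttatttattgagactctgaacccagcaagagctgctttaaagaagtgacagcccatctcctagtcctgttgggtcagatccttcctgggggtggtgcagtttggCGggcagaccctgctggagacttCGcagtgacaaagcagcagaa
Nrip1 start 2: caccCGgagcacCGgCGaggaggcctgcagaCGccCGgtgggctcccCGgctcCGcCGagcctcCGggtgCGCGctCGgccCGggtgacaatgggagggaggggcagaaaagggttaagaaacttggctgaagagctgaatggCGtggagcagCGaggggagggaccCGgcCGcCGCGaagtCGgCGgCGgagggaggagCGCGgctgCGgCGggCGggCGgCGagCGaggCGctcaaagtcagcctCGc
The stretch before the first start held 4 CpG and a G+C content of 51.2%, close to the medians of 6 CpG and 52.4% over the 32851 promoter stretches in the table. The stretch before the second held 32 CpG and 73.6% G+C, and 4.58% of all promoter stretches held as many CpG. Neither held AGGTCA, the hexamer that thyroid hormone receptors recognise, on either strand, against 14.0% of all stretches. Neither held a direct repeat of that hexamer with 4 bases between its copies, again on either strand, which 0.0152% of all stretches held. This says only that these letters are not in these windows.

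Near that upstream limit each TRβ1 list had 1 peak, and the peaks did not overlap. The TRb PTU peak lay at 76373621 to 76373789, with its midpoint 704.5 bp beyond the limit, and had a score of 18.01. The score is the value that the authors' peak caller gave each peak, and its size can be compared only within a list. Scores of different lists that are printed together therefore measure no gain or loss of binding. A list percentile places a peak within its own list: 47.3 here. The TRb T3 peak lay at 76374116 to 76374292 with a score of 5.38, near the floor of its list (list percentile 2.9). Its midpoint was 499.0 bp from that of the TRb PTU peak. The gene limits are known here only to about 1 kb, so whether either peak lies on a start site was not determined.

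The locus held 31 peaks called with T3 alone, while nearly all of its TRb PTU peaks were called in both states. A peak is shared if it overlaps a peak of the other TRβ1 list by at least 1 bp, and otherwise T3-only or PTU-only. Of the 52 TRb T3 peaks, 31 were T3-only (59.6%, exact 95% binomial interval 45.1 to 73.0%), where 38.7% of all TRb T3 peaks were. With midpoints within 1 kb counted as shared, 26 of the 52 were T3-only. Of the 22 TRb PTU peaks, 2 were PTU-only (9.09%, interval 1.12 to 29.2%), where 46.1% of all TRb PTU peaks were. The other 20 TRb PTU peaks met 21 TRb T3 peaks. Such intervals treat peaks as independent and cover counting error only. Depth is unknown, as the lists give no reads. They also hold no signal for sites that were not called, so a site without a peak in a list need not be unbound.

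The locus held 74.3 TRb T3 peaks per Mb and 31.4 TRb PTU peaks per Mb, against 17.5 and 19.7 over chromosomes 1 to 19 and X. By peaks per Mb it was thus dense in both lists, and more so in TRb T3. Neighbouring TRb T3 midpoints were a median of 5402.5 bp apart, against 8705.75 bp over the same chromosomes, and 8 of the gaps were under 1 kb. Neighbouring TRb PTU midpoints were a median of 15702.5 bp apart, against 7775.0 bp, with 0 gaps under 1 kb. By median gap the TRb PTU peaks were thus farther apart here than in their whole list, and the TRb T3 peaks closer together.

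**Figure D1:**
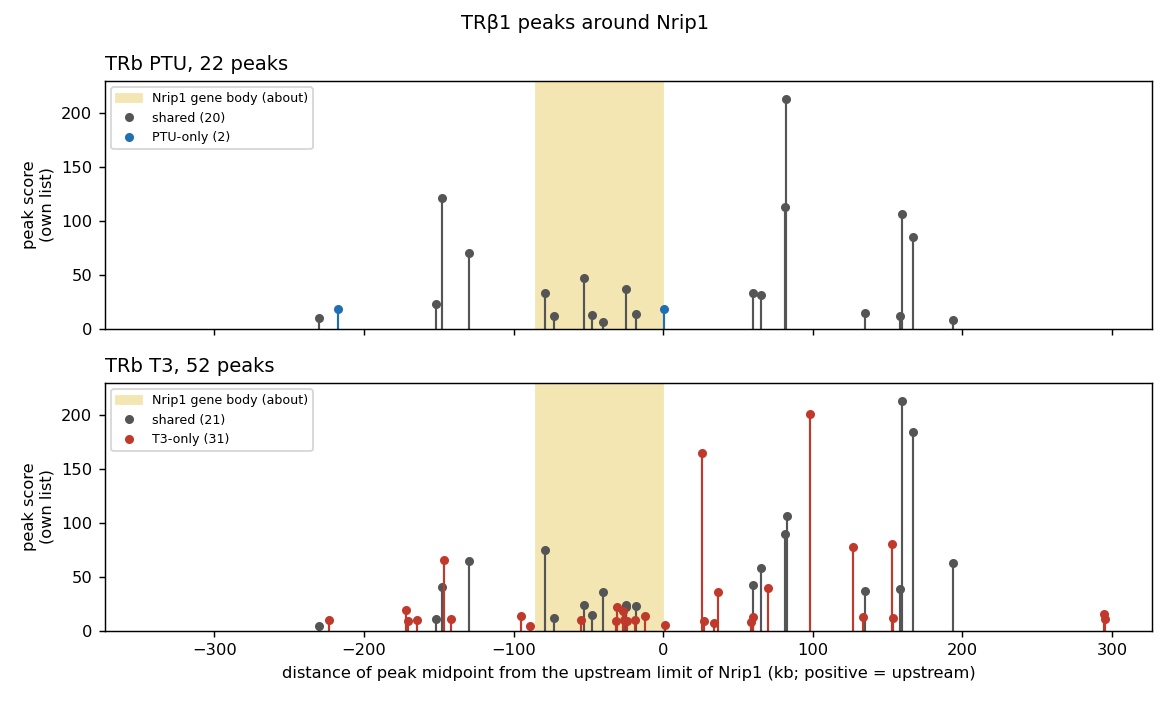
Peaks of TRb PTU (top) and TRb T3 (bottom) around Nrip1. Each stem is 1 peak, placed by the distance of its midpoint from the upstream limit of the gene in kb, with its score in its own list as height and its class as colour; T3-only peaks lie downstream, in and upstream of the gene, and the highest of them, at 201.12 and 165.40, are upstream.

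The larger number of TRb T3 peaks was seen on both sides of the gene and inside it. Downstream of Nrip1, over 288 kb, there were 12 TRb T3 and 5 TRb PTU peaks, a ratio of 2.40. In the gene body, over 85 kb, there were 16 and 7 peaks, a ratio of 2.29, and upstream, over 327 kb, there were 24 and 10, a ratio of 2.40. Over the whole lists this ratio was 0.887. T3-only peaks numbered 8 downstream, 8 in the gene body and 15 upstream. As shares of the TRb T3 peaks of each stretch, these were 66.7% (interval 34.9 to 90.1%), 8 of 16 (interval 24.7 to 75.3%) and 62.5% (interval 40.6 to 81.2%), and the intervals overlapped widely. The gene body was the densest stretch in both lists, with 18.8 TRb T3 and 8.24 TRb PTU peaks per 100 kb.

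**Figure D2:**
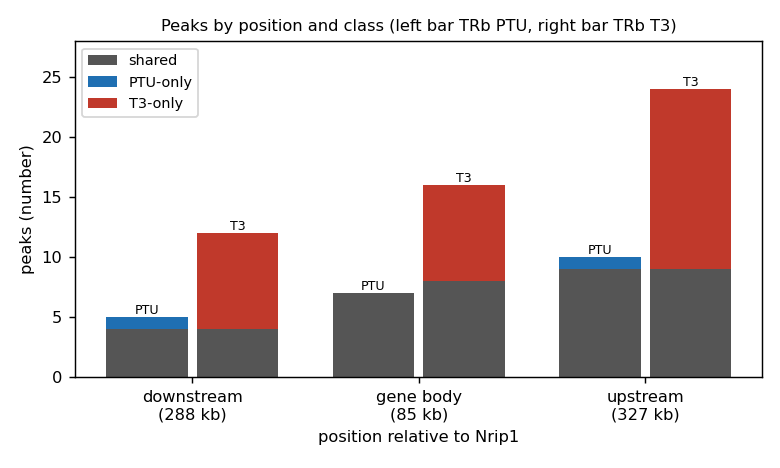
Number of peaks downstream of, in and upstream of Nrip1, with TRb PTU as the left bar and TRb T3 as the right bar of each pair, split into shared and single-list peaks. The shared parts (4 and 4, 7 and 8, 9 and 9) are nearly equal by the definition of a shared peak, so differences in totals fall in the single-list parts. The T3-only parts hold 8, 8 and 15 peaks.

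The highest-scored peak of each list lay upstream of the gene, in 2 different clusters of shared sites. The highest TRb PTU peak ran from 76455067 to 76455676 (score 213.18, list percentile 98.8), 82.37 kb upstream, and overlapped a TRb T3 peak at 76455389 to 76455660 (score 106.15, list percentile 92.5). Just beside it a shared site had a TRb PTU score of 113.34 (list percentile 93.9) at 76454045 to 76454363. Its TRb T3 score was 90.25 (list percentile 89.9) at 76454068 to 76454356. The highest TRb T3 peak ran from 76532425 to 76532718 (score 213.09, list percentile 98.9), 159.57 kb upstream, and its TRb PTU partner at 76532424 to 76532717 had a score of 106.13 (list percentile 93.1). These partners had nearly the same limits, with midpoints 1.0 bp apart. The next site upstream, also shared, had a TRb T3 score of 184.57 (76539814 to 76540388, list percentile 98.1). Its TRb PTU score was 84.95 (76539956 to 76540265, list percentile 89.9). The leading site of the locus was thus a different one in each list, and both were called in both.

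Between and below these clusters TRb T3 had high-scored peaks where no TRb PTU peak was called. The highest-scored T3-only peak, at 76471281 to 76471649, lay 98.46 kb upstream with a score of 201.12 (list percentile 98.6), and the nearest TRb PTU midpoint was 16.09 kb away. The next, at 76398458 to 76398949, lay 25.70 kb upstream with a score of 165.40 (list percentile 97.3) and was 24998.5 bp from the nearest TRb PTU midpoint. Both ranked in the top decile of the TRb T3 list. Of the 5 locus peaks in that decile these 2 were T3-only (40.0%, interval 5.27 to 85.3%). Over the whole decile 8.70% were, which that wide interval contains. T3-only peaks at 76525822 to 76526147 (score 80.73) and 76499974 to 76500227 (78.15) followed, and then 1 downstream of the gene, at 76226284 to 76226521 (65.32). That downstream peak lay 1003.0 bp from a TRb PTU midpoint, beside a wide shared site. Upstream peaks at 76442902 to 76443174 (40.02) and 76409651 to 76409923 (36.29) were the other T3-only peaks that reached the median TRb T3 score of 22.13.

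The 4 longest stretches between neighbouring TRb PTU peaks each held T3-only peaks. From 76373790 to 76432642, directly upstream of the gene and 58.9 kb long, there were 6 T3-only peaks with a highest score of 165.40. From 76455677 to 76507542, 51.9 kb long, there were 3, with a highest score of 201.12. Downstream of the gene, from 76155767 to 76220817, 65.1 kb long, there were 3, but the highest score was 19.07, at 76201166 to 76201356. From 76243437 to 76294152, 50.7 kb long, there were 2, with a highest score of 13.96. Of the T3-only peaks, 6 of 15 upstream, 1 of 8 downstream and 0 of 8 in the gene body were at or above the list median, in all 7 of 31 (22.6%), against 31.5% of all T3-only peaks. Shared TRb T3 peaks reached the median in 9 of 9 cases upstream, 2 of 4 downstream and 6 of 8 in the gene body. In all these were 17 of 21 (81.0%), against 61.7% of all shared TRb T3 peaks. These differences between stretches were not tested.

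Inside Nrip1 every TRb PTU peak had a TRb T3 partner, and the T3-only peaks called there were all below the TRb T3 list median score. The site nearest the 3′ side, at 76294139 to 76294380, was the strongest TRb T3 peak of the gene body (score 74.58, list percentile 86.3). Its TRb PTU score was 33.51 (list percentile 68.8). The strongest TRb PTU peak of the gene body ran from 76320000 to 76320271 (score 47.02, list percentile 78.0). The TRb T3 peak there scored 23.90 (list percentile 52.9). A wide TRb PTU peak at 76348051 to 76348555 (score 37.27) met 2 TRb T3 peaks, with scores of 22.32 and 24.01. The shared site at 76332515 to 76332701 stood at score 35.56 in TRb T3 and at 6.05 in TRb PTU, list percentiles of 66.9 and 6.22. The other 3 shared sites began at 76299868, 76325297 and 76354633 in TRb T3, with TRb T3 scores of 11.65, 14.95 and 23.41 and TRb PTU scores of 12.00, 12.83 and 13.30.

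The 8 T3-only peaks of the gene body had scores from 9.36 to 21.65, all below the list median. The highest began at 76342034, followed by 76346134 (18.43) and 76360683 (13.31). The other 5 began at 76317828, 76341603, 76346757, 76348674 and 76354064, with scores of at most 10.19. Those at 76348674 and 76354064 lay 445.5 and 543.0 bp from a TRb PTU midpoint, next to shared sites. The only further peak within 10 kb of the gene body, besides those at the upstream limit, was a T3-only peak at 76284204 to 76284335 on the downstream side (score 4.34).

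The shared sites of the locus moved in rank in both directions between the hormone states. To compare ranks, each list was ranked by score over the same 27010 pairs of overlapping peaks that met no further peak, of which 48.9% ranked higher in TRb T3. The locus held 19 of these pairs, and 11 ranked higher in TRb T3 (57.9%, interval 33.5 to 79.7%). The median shift, TRb T3 minus TRb PTU, was 10.3 percentile points, with a range from -30.4 to 69.2. Over all pairs the median shift was -0.509. The middle 50% of all pairs lay between -17.8 and 16.8 points, which is the spread of single pairs and not of a median. The interval of the locus share contains the 48.9% of all pairs, and the difference between the medians was not tested.

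By position, 0 of 4 pairs downstream (interval 0.0 to 60.2%), 4 of 6 in the gene body (22.3 to 95.7%) and 7 of 9 upstream (40.0 to 97.2%) ranked higher in TRb T3. Each interval contains the 48.9% of all pairs, and the difference between the stretches was not tested. The downstream site with the largest shift was the wide one at 76225047 to 76225745 (TRb T3 score 40.76), whose TRb PTU peak at 76225066 to 76225733 scored 121.75; among the pairs it stood at percentile 60.6 with T3 and 90.9 without. Another downstream site, at 76243084 to 76243457, was nearly level, with a TRb T3 score of 65.14 and percentiles of 76.0 and 77.2. The farthest upstream shared site, at 76566470 to 76566711, scored 62.54 in TRb T3 and 7.77 in TRb PTU and had the largest shift of the locus, from percentile 5.73 in TRb PTU to 74.9 in TRb T3. The shared sites at 76438324 to 76438659 (TRb T3 score 58.41) and 76432654 to 76432882 (42.96) shifted by 23.8 and 10.8 points. The neighbouring sites at 76454045 and 76455067 in TRb PTU, which scored 113.34 and 213.18 there, were the only upstream ones to rank lower in TRb T3, by -4.41 and -9.33 points.

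**Figure D3:**
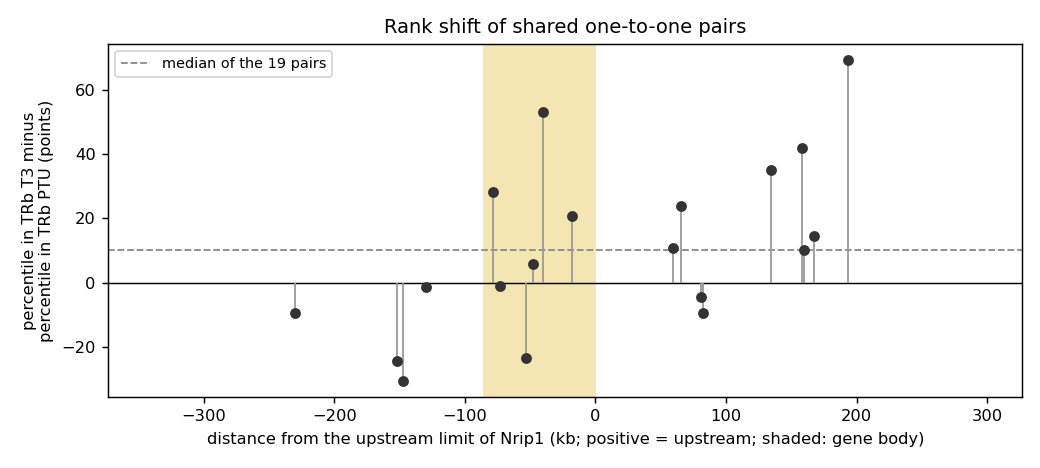
Rank shift of the 19 shared pairs, as percentile among all such pairs in TRb T3 minus that in TRb PTU, against distance from the upstream limit of Nrip1 in kb; the dashed line is their median of 10.3 points and the gene body is shaded. The 4 downstream pairs lie below 0 and 7 of the 9 upstream pairs lie above it.

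The excess of T3-only peaks was carried mostly by peaks below the list median score. Below the TRb T3 list median, 24 of 28 locus peaks were T3-only (85.7%, interval 67.3 to 96.0%), against 53.0% of all such peaks. At or above it, 7 of 24 were T3-only (29.2%, interval 12.6 to 51.1%), against 24.3%, which is near the background. In the highest quartile of the list the share was 5 of 13 (38.5%, interval 13.9 to 68.4%), against 15.3%. Above the median the locus nevertheless had 24 TRb T3 against 12 TRb PTU peaks, a ratio of 2.0 where the whole lists had 0.886, and in the top 10% of each list it had 5 against 4. Of the 12 TRb PTU peaks at or above their list median, 0 were PTU-only (interval 0.0 to 26.5%), against 26.2% of all such peaks.

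**Figure D4:**
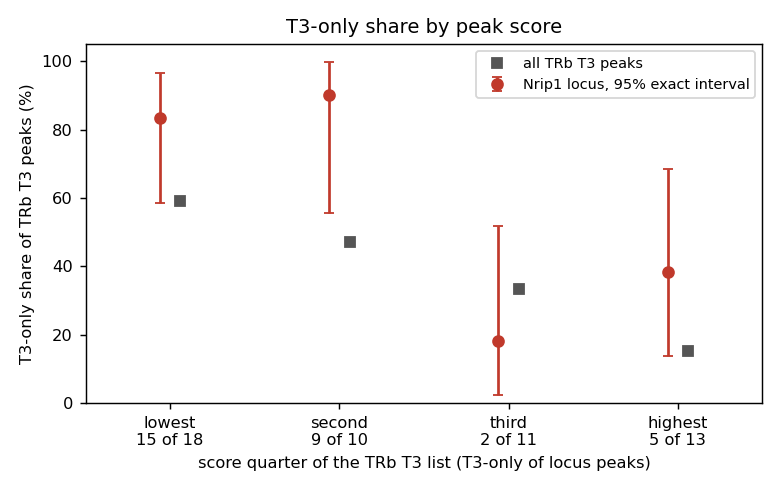
T3-only share of TRb T3 peaks, in percent, by score quartile of the TRb T3 list, for the locus (circles with exact 95% binomial intervals) and for the whole list (squares). The locus had 15 of 18, 9 of 10, 2 of 11 and 5 of 13 T3-only peaks from the lowest to the highest quartile, against 59.1, 47.0, 33.4 and 15.3% of the whole list.

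The PTU-only peaks were few, and both of the 2 scored below their list median. Of all PTU-only peaks, 28.4% scored at or above it, so most lay below it too. Besides the one at the upstream limit of the gene, a PTU-only peak lay downstream of the gene, -217.32 kb from that limit, at 76155594 to 76155766, with a score of 18.61 (list percentile 48.7). Its nearest TRb T3 midpoint was 5.71 kb away. Shared TRb T3 peaks of the locus were a median of 242.0 bp wide (212.0 bp over the whole list), and T3-only peaks 184.0 bp (170.0 bp). T3-only peaks of the locus lay a median of 6079.0 bp from the nearest TRb PTU midpoint, against 5858.0 bp for all T3-only peaks. Within 1 kb lay 5 of the 31 (16.1%), near the 17.2% of all T3-only peaks.

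Beside 3768 other windows of 700 kb, the locus stood near the T3 end. It was chosen for its many T3-only peaks, so this place follows from the choice and is no support. The other windows lie on a fixed grid and include some without peaks. Its excess of T3-only over PTU-only peaks was 29, and 2 other windows had as large an excess, both on chromosome 4 between 60200001 and 61600000, with 49 and 43. The next window, on chromosome 13 from 34300001 to 35000000, had 28, and the median window had 0. A count of 52 or more TRb T3 peaks was found in 57 windows (1.51%). Among 942 windows with at least 20 TRb T3 peaks, 10 had as high a ratio of TRb T3 to TRb PTU peaks as the locus, and the median ratio was 0.912.

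**Figure D5:**
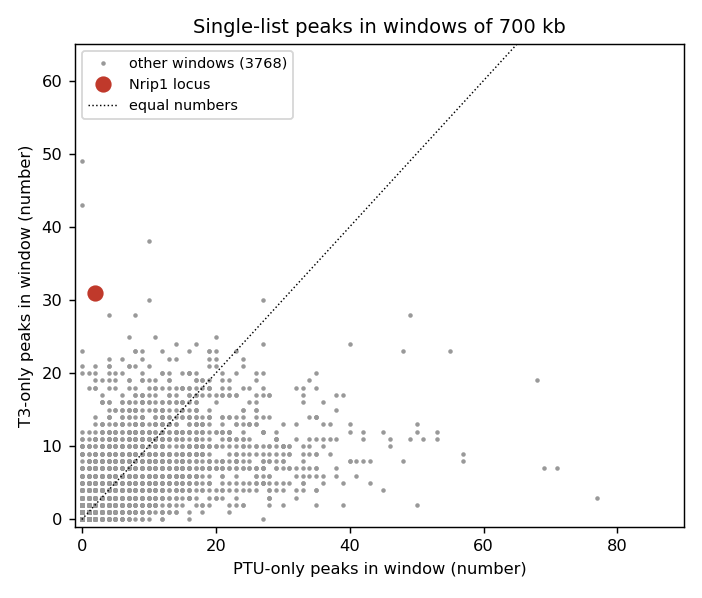
T3-only against PTU-only peaks in windows of 700 kb, with 3768 windows as points, the Nrip1 locus as the large circle and the line of equal numbers dotted. The locus, with 31 T3-only and 2 PTU-only peaks, lies at the upper left, below the 2 chromosome 4 windows with 49 and 43 T3-only and 0 PTU-only peaks.

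The locus lay in a stretch with few called sites on one side. The outermost members were the shared site at 76142669 to 76142828 (TRb T3 score 4.65) and T3-only peaks at 76667345 to 76667577 (15.96) and 76668423 to 76668559 (11.11). These T3-only peaks were separated from the other members by a gap of 100.9 kb between TRb T3 midpoints. Just outside, the first TRb T3 peak above the window lay at 76714429 to 76714689 (score 27.94, T3-only), and the last one below it was 1367.6 kb from its edge. No GFP PTU peak lay in the locus, the nearest being 18.6 Mb from its edge among 9 on chromosome 16, so no TRβ1 peak here stood at a site called without TRβ1. With 107 GFP PTU peaks in all, this says little about background.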

How the data were processed

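The deposited files are peak lists, 1 per library of captured chromatin, with a score per peak that is the authors' peak caller's value, of unstated kind. The submitters' processing notes name Bowtie, SAMtools, MACS2 and mm9. Versions, settings, control libraries and pooling: not given in the sources used here. Input samples (3) were not analysed here. Samples were grouped by title. Peaks were assigned to the window and to stretches by midpoint, and positions are 1-based. Overlap classes used all sequences of the files; windows used chromosomes 1 to 19 and X.

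The region, members and lists were chosen with earlier results of these data known. Named peaks are all PTU-only peaks, all peaks in or within 10 kb of the gene body, and the 10 highest-scored T3-only and shared TRb T3 peaks. The outermost peaks of the window, and those just outside it, were named after their values were seen. Peaks near other coregulator genes and motifs of the RIP140 protein were planned and not run, since no mm9 annotation and no protein sequence was used here. Sequences of the peaks were not used here. No p-value is given, because 1 library per condition has no replicates. The overlap and ranking code was tested on simulated data. Tools were Python 3.11.15, pandas 2.3.3, scipy 1.17.1 and numpy 2.4.6.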

Additional observations from a re-analysis of the deposited data

How the results depend on the processing

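No paired analysis was possible because there was a single library per condition. Of 75 values under alternatives, 62 stayed within their interval or within 1.5 times the reported count, and 0 turned direction. Many of these values are counts, which have no direction that could turn. Some settings, such as counting any overlap with the window, changed no count. The tally is therefore no measure of how firm the results are. With scores at or above the median in both lists, the locus held 12 T3-only, 1 PTU-only and 12 shared TRb T3 peaks (31, 2 and 21 before), with 1, 2 and 9 T3-only peaks downstream, in and upstream of the gene (8, 8 and 15 before); the excess was then 11, and 11 other windows had as large an excess. That filter also turns a shared peak into a single one where its partner falls below the median. With the filter on TRb T3 alone, chosen after seeing the data, 7 T3-only peaks were left, 29.2% of TRb T3 peaks (59.6% before). For midpoints within 1 kb, 26 TRb T3 peaks were T3-only and 26 shared. PTU-only peaks numbered 1 both for midpoints within 1 kb and for the gene with 100 kb on both sides. With the grid moved by 50% of a window, 5 other windows had as large an excess (2 before). Removing peaks at GFP sites took out 0 peaks of the locus and so could not test background. Unknown depth and 1 library per condition limit every count of peaks by hormone state.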

Other observations

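T3-only peaks continued in the stretch beyond the window on the upstream side of Nrip1, where Usp25 is the next protein-coding gene of the RefSeq table. Whether these peaks lie before, in or beyond Usp25 on mm9 was not determined. This stretch and its peaks were picked after their values were seen. In the next 700 kb there were 21 TRb T3 and 7 TRb PTU peaks, of which 15 were T3-only (71.4%, exact 95% binomial interval 47.8 to 88.7%) and 1 was PTU-only. The strongest T3-only peaks there lay on chromosome 16 at 76971532 to 76971833 (score 264.91, list percentile 99.6), 76718408 to 76718702 (170.12) and 76718908 to 76719437 (142.86). A shared site at 76766864 to 76767277, 394.1 kb upstream of the gene, had the highest TRb T3 score of the stretch, 303.57. On the other side, the 700 kb below the window held 0 TRb T3 peaks and 1 TRb PTU peak, which was PTU-only. Over the rest of chromosome 16, 41.0% of 1628 TRb T3 peaks were T3-only and 45.0% of 1747 TRb PTU peaks were PTU-only.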
